A study of Mus musculus with 6 samples.

Results

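The 9 genes described here encode parts of the presynaptic release machinery and were examined in male mouse embryos at E9.5, the embryonic day 9.5, when the first neurons of the neural tube and cranial ganglia are being born. They were taken from the deposited table by gene symbol, and all 9 were found, each at 1 of the 24207 loci of the table, 23097 of which carry a gene symbol. The list was chosen with earlier results of these data known, so a direction shared by its genes is no support by itself. RNA of whole embryos was sequenced from 3 *Smchd1*+/+ and 3 *Smchd1*MommeD1/MommeD1 embryos. The MommeD1 allele is a nonsense mutation induced by N-ethyl-N-nitrosourea. All embryos came from matings between heterozygous mice and were genotyped from the yolk sac. The labels give their strain as C57Bl6/J x FVB/n, whereas the text of the study describes a backcross to 129 T2/SvEms. The table gives 1 FPKM value for each genotype and locus, that is, a read density corrected for transcript length and for the number of mapped fragments, pooled by the authors over the embryos of that genotype. Values per embryo, their spread and read counts from which depth could be known were thus not used here, and no test between genotypes was run. The columns of the authors' own test in the table were not used. All differences given here compare 2 pools. *Smchd1* itself, the mutated gene, was at 2.12 FPKM in *Smchd1*MommeD1/MommeD1 against 34.0 FPKM in *Smchd1*+/+ embryos.

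Neurons store transmitter in small vesicles that fuse with the plasma membrane when calcium enters the nerve terminal. Fusion is driven by SNARE proteins, which zip together from the vesicle and the plasma membrane, and is timed by synaptotagmins, vesicle proteins that bind calcium and lipid in most but not all family members. Other vesicle proteins load transmitter, sort vesicle components or tether the vesicle before release. Many of these genes are switched on as neurons leave the cell cycle, well before synapses form, and some are used for membrane traffic in other cells as well. In RNA of whole embryos a larger number of neurons and more RNA per neuron cannot be told apart.

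All 9 genes had a higher value in *Smchd1*MommeD1/MommeD1 than in *Smchd1*+/+ embryos. Over all loci with a symbol, 9426 were higher in mutant embryos and 9017 were lower. The levels of the 9 genes spanned a wide range, from *Syt11*, which was the highest of the 9 in both genotypes, to *Slc17a6*, which was the lowest in both. Summed over the 9 genes, expression was 42.2 FPKM in mutant against 30.8 FPKM in wildtype embryos, a fold of 1.37. *Vamp2* and *Syt11* together held 78.0% of that sum in wildtype and 73.3% in mutant embryos. Without them the sum of the other 7 genes was 11.3 FPKM in mutant against 6.77 FPKM in wildtype embryos, a fold of 1.66. Folds in what follows are the plain quotient of both FPKM values, mutant over wildtype, while log2 ratios were taken with 0.1 FPKM added to each value, which lowers the ratios of weakly expressed genes.

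**Figure D1:**
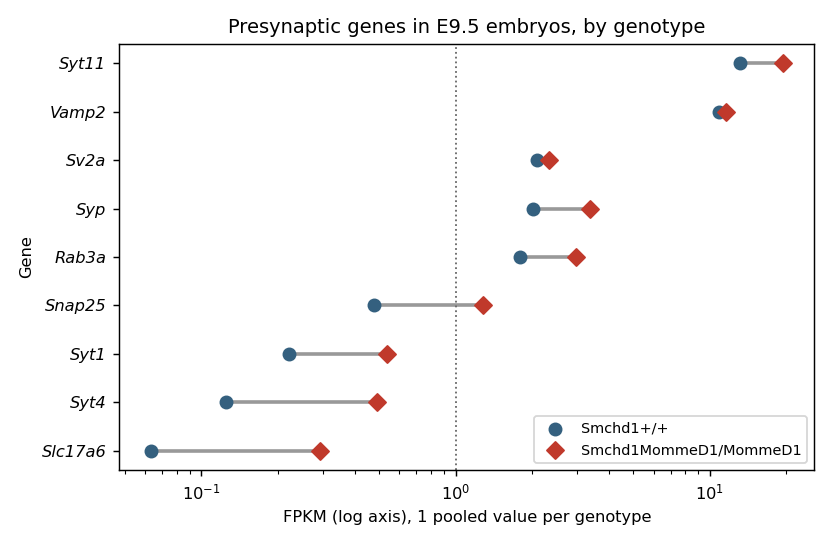
FPKM on a log axis for the 9 presynaptic genes (vertical axis, ordered by wildtype level), with 1 pooled value for *Smchd1*+/+ (circles) and 1 for *Smchd1*MommeD1/MommeD1 embryos (diamonds) and no error bars, since no value per embryo was used. The mutant value lies to the right for all 9 genes, from 1.06-fold for *Vamp2* to 4.64-fold for *Slc17a6*. The gap is wider for the weakly expressed genes, but not in strict order of level, with 1.47-fold for *Syt11*, the highest gene. The wildtype value that orders the genes is also the denominator of the fold. The dotted line marks 1 FPKM.

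Of the SNARE genes, *Snap25* encodes the plasma membrane SNARE of neurons and *Vamp2* the SNARE of the synaptic vesicle. *Snap25* (chromosome 2 of mm10, 136713450 to 136782428) was at 1.28 FPKM in mutant against 0.476 FPKM in wildtype embryos, 2.70-fold higher, with a log2 ratio of 1.26. *Vamp2* (chromosome 11, 69088528 to 69092381) was at 11.5 FPKM in mutant against 10.9 FPKM in wildtype embryos, 1.06-fold higher, with a log2 ratio of 0.08. The SNARE partners were therefore far apart, both in level and in difference: the level of *Vamp2* was 22.8 times that of *Snap25* in wildtype and 8.99 times in mutant embryos.

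The synaptotagmins of the list differ in calcium binding. *Syt1* is the calcium sensor for fast release, whereas *Syt4* and *Syt11* encode related proteins that lack a residue needed for calcium binding in the first of their C2 domains. *Syt1* (chromosome 10, 108497650 to 109010975) was at 0.539 FPKM in mutant against 0.220 FPKM in wildtype embryos, 2.45-fold higher (log2 ratio 0.996). *Syt4* (chromosome 18, 31437808 to 31447415) was at 0.490 and 0.125 FPKM, 3.93-fold higher (log2 ratio 1.39, the highest of the 9). *Syt11* (chromosome 3, 88744701 to 88772599) was at 19.4 and 13.2 FPKM, 1.47-fold higher (log2 ratio 0.55). The sensor for fast release was thus a minor transcript beside *Syt11*, whose level was 59.7 times that of *Syt1* in wildtype and 35.9 times in mutant embryos. In FPKM rather than in ratio, *Syt11* had the largest difference of the 9 genes, 6.20 FPKM between the genotypes, against 0.365 FPKM for *Syt4*.

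*Syp* and *Sv2a* encode abundant membrane proteins of synaptic vesicles, synaptophysin and a glycoprotein of the transporter superfamily. *Syp* (X chromosome, 7638580 to 7653256) was at 3.37 FPKM in mutant against 2.01 FPKM in wildtype embryos, 1.68-fold higher (log2 ratio 0.72). *Sv2a* (chromosome 3, 96181227 to 96195180) was at 2.33 and 2.09 FPKM, 1.12-fold higher (log2 ratio 0.15). These genes lay close together in wildtype embryos, where *Syp* was at 0.964 times the level of *Sv2a*, and their order turned in mutant embryos, where *Syp* was at 1.45 times. Without values per embryo it could not be tested whether the change of order exceeds the spread between embryos, and the same holds for *Rab3a*, which followed *Sv2a* and *Syp* in wildtype and lay between them in mutant embryos.

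*Rab3a* encodes the small GTPase that cycles on and off synaptic vesicles. It was at 2.96 FPKM in mutant against 1.79 FPKM in wildtype embryos, 1.66-fold higher (log2 ratio 0.70). The locus of *Rab3a* in the table (chromosome 8, 70754679 to 70760931) is shared with *Mpv17l2*, a gene of the opposite strand, and GENCODE M21 places 29 exonic bases in both genes. The libraries were nondirectional, so reads over these bases cannot be assigned by strand. *Mpv17l2* was at 9.63 and 8.24 FPKM, a log2 ratio of 0.22. *Syt1* likewise shares its locus with *Gm5136*, which has no exonic base in common with it and was listed at 0.0206 FPKM in mutant and at 0 in wildtype embryos.

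*Slc17a6* encodes the vesicular glutamate transporter VGLUT2, which fills vesicles with glutamate in many excitatory neurons of the brainstem and spinal cord. It (chromosome 7, 51621830 to 51671126) was at 0.293 FPKM in mutant against 0.0632 FPKM in wildtype embryos. This is the largest fold of the 9 genes, 4.64-fold, and the log2 ratio was 1.27 with 0.1 FPKM added. The value in wildtype embryos is below the added 0.1 FPKM, and the table marks *Slc17a6*, alone among the 9 genes, as having too few reads for a test by the authors.

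The size of the difference was read against all loci with a symbol. A mean over both genotypes of at least 1 FPKM was reached by 5 of the 9 genes, namely *Vamp2*, *Syt11*, *Syp*, *Rab3a* and *Sv2a*. Of these 5, *Syp* and *Rab3a* were at least 1.5-fold higher in mutant embryos on the log2 scale with 0.1 FPKM added, and *Syt11* fell just short, at 1.47-fold. The same threshold was passed by 3.20% of all 11980 loci with that mean, and 1.08% were at least 1.5-fold lower, among which was none of the 9 genes. Loci past the threshold were higher in 74.8% of cases, or in 64.0% when ratios were centred on housekeeping genes. The median log2 ratio was 0.55 over the 5 genes and -0.01 over all 11980 loci. Without the filter, 6 of the 9 genes were at least 1.5-fold higher, with a median of 0.72 over the 9, against 5.70% of 18443 loci with a value above 0. In the other direction the share was 2.44%, and none of the 9 genes was among those loci.

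Loci with few reads scatter more, so the genes were also set beside loci of their own level. At a mean of 0.1 to under 1 FPKM, 16.4% of 3111 loci were at least 1.5-fold higher, as were *Snap25*, *Syt1*, *Syt4* and *Slc17a6*, the genes with such a mean. *Slc17a6* has it only through the mutant value, since its wildtype value lies below 0.1 FPKM. Among these 3111 loci 2.35% had a log2 ratio at least as high as that of *Syt4*, 3.15% as that of *Slc17a6*, 3.18% as that of *Snap25* and 5.69% as that of *Syt1*. At 1 to under 5 FPKM the share past 1.5-fold was 8.28% of 3287 loci, and 2 of 3 genes were past it. There *Syp* was equalled or passed by 5.51% and *Rab3a* by 6.05% of loci, but *Sv2a* by 33.5%. At 5 to under 20 FPKM the share was 1.79% of 4649 loci, with neither *Syt11* nor *Vamp2* past it. *Syt11* was equalled or passed by 1.96% of loci at that level and *Vamp2* by 29.2%. *Vamp2* and *Sv2a* thus lay well within the loci of their level, and the other 7 genes lay in the upper 6.05% or beyond. Of those 7, *Syt1* was still below the 95th percentile of its level (1.07). *Syp* and *Rab3a* were below that of theirs (0.75). These shares describe the 2 pools and are not tests across embryos.

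**Figure D2:**
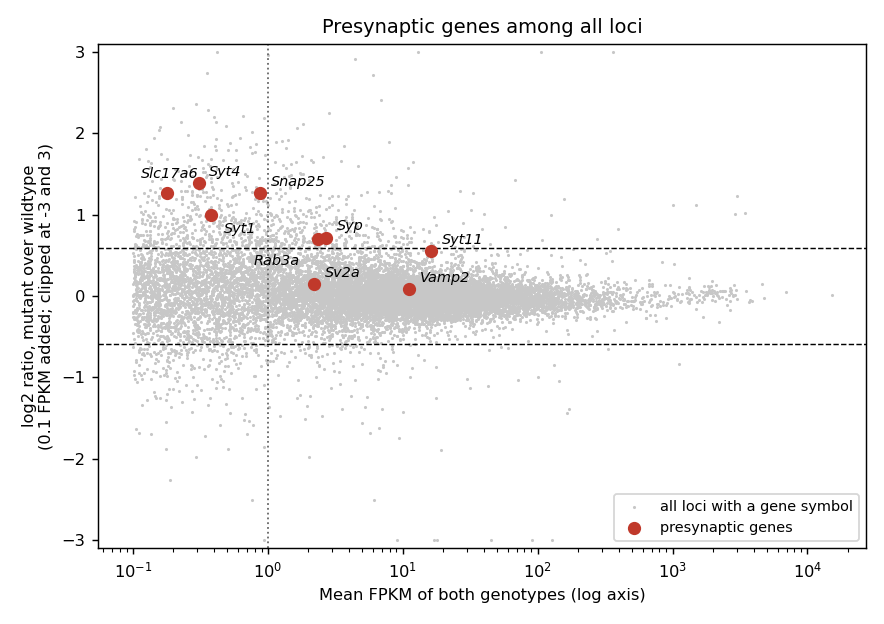
Log2 ratio of mutant over wildtype FPKM (vertical axis, 0.1 FPKM added to each value, clipped at -3 and 3) against the mean FPKM of both genotypes (log axis) for loci with a gene symbol and a mean of at least 0.1 FPKM (grey points) and the 9 presynaptic genes (red points). Dashed lines mark 1.5-fold in either direction and the dotted line 1 FPKM. The grey cloud widens toward low FPKM, and *Vamp2* (0.08) and *Sv2a* (0.15) lie well inside it, while *Syt4* (1.39) is the highest of the 9. *Syt1*, *Syp* and *Rab3a* lie below the 95th percentile of loci of their level.

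The start regions of some of these genes are given here so that genes that were higher together can be compared at their promoters. RefSeq windows on GRCm38.p6, the assembly of mm10, reach from 250 bases before to 50 bases after each transcript start and were found for 6 of the 9 genes, all except *Snap25*, *Vamp2* and *Syt4*. They were searched on both strands for the letters CAGCACC of the left part and GGACAGC of the right part of RE1, the element bound by the neuronal gene repressor REST, and for the cAMP response element TGACGTCA, the GC box GGGCGG and the TATA box TATAAA. Also searched were E-boxes, the sites of basic helix-loop-helix factors, in the forms CAGCTG, with its relative CAGATG, and lastly CATATG. None of these motifs contains another. Shown are *Syp* and *Rab3a*, which were at least 1.5-fold higher with a mean of at least 1 FPKM, *Syt1* as a weakly expressed gene, and *Sv2a*, which was 1.12-fold higher. Matches are in capitals, and all windows read 5′ to 3′ on the strand of the gene.
*Syp*, chrX:7638330-7638629, plus strand: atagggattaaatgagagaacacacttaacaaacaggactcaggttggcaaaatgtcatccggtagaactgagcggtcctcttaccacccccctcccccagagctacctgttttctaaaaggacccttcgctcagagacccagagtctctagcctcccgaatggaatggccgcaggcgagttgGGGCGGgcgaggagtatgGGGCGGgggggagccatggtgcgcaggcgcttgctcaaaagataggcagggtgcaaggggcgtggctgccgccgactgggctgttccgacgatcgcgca
*Rab3a*, chr8:70754453-70754752, plus strand: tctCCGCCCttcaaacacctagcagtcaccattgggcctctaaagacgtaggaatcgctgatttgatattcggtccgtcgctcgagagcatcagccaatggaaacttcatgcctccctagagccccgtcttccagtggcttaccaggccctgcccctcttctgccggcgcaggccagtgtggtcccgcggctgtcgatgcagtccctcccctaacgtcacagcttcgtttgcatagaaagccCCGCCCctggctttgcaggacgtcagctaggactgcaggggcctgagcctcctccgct
*Syt1*, chr10:109010926-109011225, minus strand: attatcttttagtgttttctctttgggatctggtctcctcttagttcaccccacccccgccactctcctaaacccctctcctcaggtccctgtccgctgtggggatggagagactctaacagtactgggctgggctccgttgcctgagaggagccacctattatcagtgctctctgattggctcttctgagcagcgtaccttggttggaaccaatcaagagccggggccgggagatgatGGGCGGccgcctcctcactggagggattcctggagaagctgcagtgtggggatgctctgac
*Sv2a*, chr3:96180977-96181276, plus strand: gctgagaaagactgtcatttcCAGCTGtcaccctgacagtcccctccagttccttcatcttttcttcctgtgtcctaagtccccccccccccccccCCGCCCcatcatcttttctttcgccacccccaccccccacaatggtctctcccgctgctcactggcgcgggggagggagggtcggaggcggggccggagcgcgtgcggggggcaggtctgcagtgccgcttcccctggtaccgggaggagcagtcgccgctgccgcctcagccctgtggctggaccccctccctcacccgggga

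All 4 windows hold the GC box, bound by Sp1 and related factors, 2 times in *Syp* and *Rab3a* and 1 time in *Syt1* and *Sv2a*. So do the windows at the first start of *Syt11* and *Slc17a6*, with 2 and 1 matches. Of 32817 windows of all genes, 35.6% hold it. *Sv2a* also has the E-box CAGCTG, at position -229 from the start, which 16.3% of all windows hold. *Slc17a6*, *Rab3a* and *Syt1* each have a second annotated start, and none of those windows has a GC box. The *Rab3a* and *Syt1* ones hold CAGCTG, and that of *Slc17a6* holds CAGATG, found in 17.2% of all windows, as well as an E-box of the form CATATG, found in 3.92%. Neither part of RE1, found in 7.14% (left) and 6.56% (right) of all windows, is in any window of the 6 genes, and the same is true of the cAMP response element (1.79% of all windows) and the TATA box (13.6%). The ratio of observed to expected CpG was 0.70 in the *Syp*, 0.69 in the *Rab3a*, 0.51 in the *Sv2a* and 0.33 in the *Syt1* window, against a median of 0.38 over all windows. The genes with a GC box include *Sv2a*, 1.12-fold higher, and *Slc17a6*, 4.64-fold higher, and a part of the GC box in these differences was not tested. The start used for the *Slc17a6* window, 51621830, lies before the start of the gene in GENCODE M21, 51622006. REST itself was not named by the rule for naming genes and is given because of the motif search, after its value had been seen. *Rest* was at 8.14 FPKM in mutant against 8.94 FPKM in wildtype embryos, a log2 ratio of -0.13. Of the 7 genes for REST and its corepressors, none was 1.5-fold higher or lower. The most abundant, *Hdac2*, was at 132 and 136 FPKM, and *Rcor3* had the ratio farthest from 0 (0.28).

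Relatives of the 9 genes that most cells use were not 1.5-fold higher or lower. *Snap23*, which takes the place of *Snap25* in non-neuronal exocytosis, was at 31.5 FPKM in mutant against 36.9 FPKM in wildtype embryos (log2 ratio -0.23). *Snap29* and *Snap47* had log2 ratios of 0.17 and 0.26. Beside *Vamp2*, the ubiquitous *Vamp3* was at 76.2 and 81.8 FPKM (-0.10), *Vamp8* was at 25.3 and 27.8 FPKM (-0.13) and the neuronal *Vamp1* at 0.316 and 0.376 FPKM (-0.20). *Sypl*, the relative of *Syp* outside neurons, was at 14.4 and 16.8 FPKM (-0.22). *Snap25* and *Syp* were thus less abundant than each of these broadly used relatives. The broadly used relatives were counted from a list of 40 genes for membrane fusion and traffic, 39 of which had a mean of at least 1 FPKM. Of these 39, 0 were 1.5-fold higher and 0 were 1.5-fold lower, 13 had a log2 ratio above 0 and 26 below, and the median was -0.04. Over all loci with that mean, 3.20% were that much higher and 1.08% lower, and 5767 ratios were above 0 and 6213 below. Among loci at 5 to under 20 FPKM the share higher was 1.79%, so a count of 0 is near the background. *Esyt1*, an extended synaptotagmin that tethers the endoplasmic reticulum to the plasma membrane, was the highest of the 39 at 0.48. *Rab5a*, the GTPase of early endosomes, was the lowest at -0.30.

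Within the families more closely tied to regulated secretion the differences were mixed. All 3 relatives of *Rab3a* were higher in mutant embryos, *Rab3b* at 1.09 and 0.552 FPKM (log2 ratio 0.86), *Rab3d* at 1.47 and 0.966 FPKM (0.56) and *Rab3c* at 0.264 and 0.121 FPKM (0.72). Of the relatives of *Sv2a*, *Sv2b* was at 0.261 and 0.452 FPKM (-0.61) and *Sv2c* at 0.195 and 0.146 FPKM (0.26). The other vesicular glutamate transporters were also low, with *Slc17a7* at 0.450 and 0.309 FPKM (0.43) and *Slc17a8* at 0.0257 and 0.0163 FPKM (0.11). *Slc17a7* exceeded *Slc17a6* in level in both genotypes, although *Slc17a6* had the larger ratio. Of 14 other synaptotagmins, 4 reached a mean of 1 FPKM, *Syt14* (log2 ratio 0.00), *Syt7* (0.07), *Syt9* (-0.08) and *Syt13* (0.43). None of these 4 was 1.5-fold higher. Below 1 FPKM, *Syt2*, a fast calcium sensor like *Syt1*, was at 0.536 and 0.202 FPKM (1.07), with *Syt16* at 0.76 and *Syt5* at 0.62, whereas *Syt3* was at 0.599 and 0.835 FPKM (-0.42). The others below 1 FPKM were *Syt15* (0.17), *Syt17* (0.09), *Syt8* (0.04), *Syt12* (-0.03), *Syt10* (-0.15) and *Syt6* (-0.29). Over all 14 without the filter, 9 ratios were above 0 and 5 below, with a median of 0.06. Of the relatives named, *Rab3c*, *Sv2b*, *Sv2c*, *Slc17a7*, *Slc17a8*, *Syt6*, *Syt8*, *Syt10*, *Syt15*, *Syt16* and *Vamp1* are marked as having too few reads for a test by the authors. *Rab3d* reached a mean of 1 FPKM only through its mutant value.

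**Figure D3:**
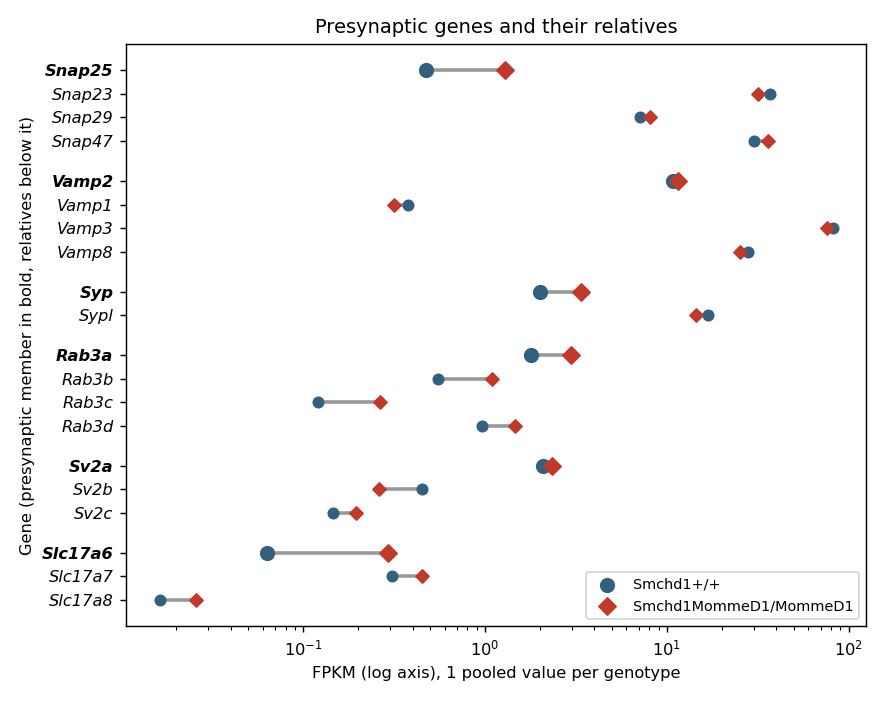
FPKM on a log axis for 6 presynaptic genes (bold) and the relatives of each, with 1 pooled value for *Smchd1*+/+ (circles) and 1 for *Smchd1*MommeD1/MommeD1 embryos (diamonds), without error bars. The diamond lies right of the circle for *Snap25* and *Syp* but left of it for their abundant relatives *Snap23* and *Sypl*, while *Rab3b*, *Rab3c* and *Rab3d* lie on the same side as *Rab3a*.

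The rest of the presynaptic pathway was counted from a list of 74 genes with 75 entries. A mean of at least 1 FPKM was reached by 28 entries, with 22 ratios above 0, 6 below and a median of 0.13. Over all loci with that mean, 5767 ratios were above 0 and 6213 below, and 3.20% of loci were at least 1.5-fold higher. Of the 28 entries, 3 were at least 1.5-fold higher and 0 lower. Among these were *Syn1*, encoding a vesicle phosphoprotein that tethers vesicles to actin (1.35 and 0.728 FPKM, log2 ratio 0.81), and *Dnm1*, the dynamin of neurons, which cuts vesicles from the membrane (8.03 and 4.78 FPKM, 0.74). *Syn1* reached a mean of 1 FPKM only through its mutant value. The table marks the test of *Dnm1* as failed. Without the filter, 20 of 75 entries were at least 1.5-fold higher and 1 was lower, against 5.70% and 2.44% of all loci. That background is not matched for level. Of the 75 entries, 47 had a mean under 1 FPKM, and 17 of these were higher and 1 lower. Among loci at 0.1 to under 1 FPKM, 16.4% were at least 1.5-fold higher.

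By role, the shares were uneven and the numbers small. Of 12 SNARE partners, 6 reached a mean of 1 FPKM and their median log2 ratio was 0.17, with values for *Doc2a* (0.08), *Cplx2* (0.18) and *Stx1a*, the syntaxin that binds *Snap25* protein (2.63 and 2.13 FPKM, 0.29). Of the genes listed with the Rab3 family, the exchange factor gene *Rab3il1* had a log2 ratio of 0.16, *Madd* one of 0.23 and *Rab3ip* one of -0.10. Genes of the active zone, the site where vesicles dock, included *Unc13b* (0.09), *Erc1* (-0.06) and *Erc2* (0.03), none of them 1.5-fold higher. Among vesicle recycling genes *Amph* was at 2.35 and 1.70 FPKM (0.44), while the broadly expressed *Bin1* was at 35.8 and 34.2 FPKM (0.07). The abundant vesicle membrane genes were lower, *Scamp5* at 5.13 and 6.11 FPKM (-0.25) and *Dnajc5*, a chaperone of SNAREs in many tissues, at 35.5 and 38.1 FPKM (-0.10).

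**Figure D4:**
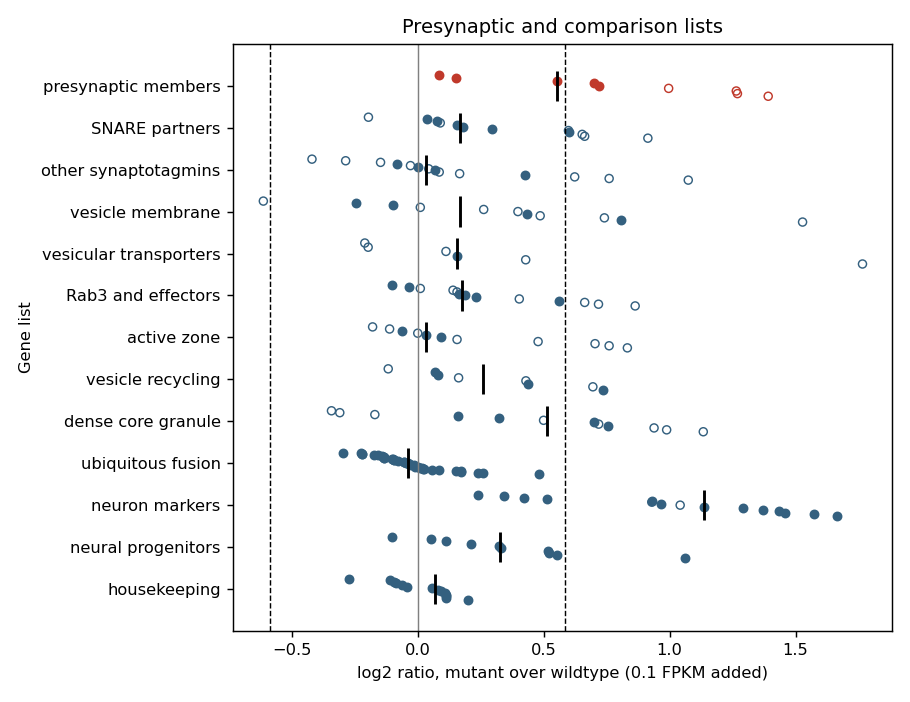
Log2 ratio of mutant over wildtype FPKM (horizontal axis, 0.1 FPKM added) for each gene of the presynaptic list (red) and of 12 comparison lists (blue), with points filled from a mean of 1 FPKM upward and open below it, and a black bar at the median of the filled points. Dashed lines mark 1.5-fold in either direction. The ubiquitous fusion genes cluster around 0 with a median of -0.04, the presynaptic genes have a median of 0.55 and the neuron markers one of 1.14.

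Markers of neurons were also higher in mutant embryos. Of 16 neuron markers 15 had an entry and 13 a mean of at least 1 FPKM. Of these 13, 9 were at least 1.5-fold higher, against 3.20% of all loci with that mean. All 13 had a ratio above 0, as did 5767 of 11980 loci with that mean. The median log2 ratio of the 13 was 1.14. No marker was at 0 in either genotype, and the summed level was 284 FPKM in mutant against 142 FPKM in wildtype embryos. *Tubb3*, the tubulin of neurons, was at 99.9 and 37.0 FPKM, a log2 ratio of 1.43. *Gap43*, next in mean level, was at 39.9 and 31.4 FPKM (0.34), and the ratios of the 13 ran from 0.24 to 1.67. Set against *Tubb3* in the same genotype, *Snap25* was at 12.9 FPKM per 1000 FPKM of *Tubb3* in both mutant and wildtype embryos, and *Syt1* was at 5.39 in mutant and 5.96 in wildtype embryos. *Slc17a6* (2.94 and 1.71 per 1000) and *Syt4* (4.90 and 3.38 per 1000) were higher against *Tubb3* in mutant embryos. The other 5 genes were lower against it, *Rab3a* at 29.6 and 48.3, *Syp* at 33.8 and 54.4, *Sv2a* at 23.3 and 56.5, *Syt11* at 194 and 356 and *Vamp2* at 115 and 294 per 1000. Set against the summed neuron markers instead, *Snap25* was at 4.53 per 1000 in mutant and 3.34 in wildtype embryos and *Syt1* at 1.90 and 1.55, so that the equality for *Snap25* held for *Tubb3* and the direction for *Syt1* turned. *Syt4* and *Slc17a6* were higher and the other 5 genes lower against either reference. The part of neuron number in the difference was not tested.

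Other cell types moved with genotype too. The 10 neural progenitor genes had a median log2 ratio of 0.33 and a summed level of 735 FPKM in mutant against 530 FPKM in wildtype embryos, and 1 of them, *Fabp7*, was 1.5-fold higher (43.1 and 20.6 FPKM). The 6 erythroid genes had a median of 1.01, with 5 of 6 at least 1.5-fold higher and a summed level of 12679 and 6000 FPKM, and the 6 megakaryocyte genes had a summed level of 28.8 and 10.9 FPKM. Of these, 4 reached a mean of 1 FPKM, *Itga2b* and *Ppbp* only through the mutant value, and were 1.5-fold higher (median 1.85). Over all loci with that mean, 3.20% were that much higher and 1.08% that much lower. Of the visceral endoderm genes, 3 of 6 reached that mean, 1 of them was higher and 2 lower (median -0.87, summed level of all 6 at 19.5 and 22.1 FPKM). Heart genes (median -0.22), endothelial genes (-0.05) and housekeeping genes (0.07) held no gene past 1.5-fold, and no marker of these lists was at 0. The part of these shifts in the values of the presynaptic genes was not tested.

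Of 14 genes for transmitter synthesis and uptake, 1 reached a mean of 1 FPKM, *Ddc*, an enzyme of monoamine synthesis (6.8 and 5.82 FPKM, log2 ratio 0.22). Among the vesicular transporters beside *Slc17a6*, that for acetylcholine, *Slc18a3*, was at 1.31 FPKM in mutant against 0.314 FPKM in wildtype embryos, a log2 ratio of 1.77. Its companion *Chat*, which makes acetylcholine, was at 0.0342 and 0.0358 FPKM. The genes for GABA synthesis were also low, *Gad1* at 0.160 and 0.251 FPKM and *Gad2* at 0.156 and 0.192 FPKM. *Chat*, *Gad1* and *Gad2* are marked as having too few reads for a test by the authors. Both values of *Chat* are below the added 0.1 FPKM. Of the other monoamine genes, *Dbh*, which makes noradrenaline, was at 0.597 and 0.126 FPKM (1.62) and *Th*, the first enzyme of catecholamine synthesis, at 0.935 and 0.430 FPKM (0.97). The means of *Slc18a3*, *Dbh* and *Th* are under 1 FPKM, and among loci at 0.1 to under 1 FPKM 16.4% were at least 1.5-fold higher. The direction was mixed, however. Without the filter, 4 of 7 monoamine genes had a ratio above 0 and 3 below, and of all 14 genes 8 and 6. The vesicular monoamine transporter *Slc18a2* was at 2.20 and 1.96 FPKM (0.16).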

How the data were processed

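RNA of 6 male embryos at E9.5 was sequenced, 3 for each genotype as the labels give it. By the study's text and the submitters' processing notes, the authors aligned single-end reads of nondirectional libraries to mm10 with TopHat2 2.0.6 and Bowtie2 2.0.2 and compared genotypes with Cuffdiff 2.0.2. The gene annotation release is not given in the sources used here. The unit of the deposited values is FPKM, 1 value per genotype that the authors pooled over embryos. The columns are headed Smchd1_M and Smchd1_P, and were assigned to mutant and wildtype by the study's supplementary table of the same comparison. The remaining columns hold the authors' fold change, test statistic, p-value and q-value and were not used, apart from the status column. Depth per sample is unknown.

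Log2 ratios were computed as mutant over wildtype with 0.1 FPKM added, and counted at 1.5-fold over loci with a symbol and a mean of at least 1 FPKM. The choice of members, lists and most alternatives was made with earlier results of these data known. The genes named are all members and their relatives, with *Smchd1*. Those of each list or role were drawn from the 3 highest means and, at a mean of at least 1 FPKM, the 2 ratios farthest from 0. Not every gene that this rule gives for a list is named, and of the neuron list only *Tubb3* and *Gap43* are. *Rest*, *Mpv17l2* and *Gm5136* fall outside this rule and were added after their values were seen. An item that the rule names is not reported here. No test between embryos could be run. The counting was tested on simulated data with known folds. Sequences are from RefSeq (GRCm38.p6) and exons from GENCODE M21. Python 3.11.15, numpy 2.4.6, pandas 2.3.3 and matplotlib 3.10.9 were used.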

Additional observations from a re-analysis of the deposited data

How the results depend on the processing

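Leaving out embryos was not possible, and no paired analysis was possible because the table holds 1 pooled value per genotype. Values were taken as unmoved within 0.1 on the log2 scale or 1.5 times for a count, and 74 of 108 alternatives stayed within that. The log2 ratios of the 9 genes kept their sign in all 54 alternatives run for them, and those of *Vamp2*, *Sv2a* and *Syt11* stayed within 0.1 in each. Only a rescaling could have turned a sign, since another constant added to both values cannot. The rescalings moved the ratios by less than the smallest of them, and *Vamp2* was lowest at 0.02, centred on housekeeping genes. The kept signs are therefore no support for the differences. With 0.01 FPKM added, the log2 ratio was 1.41 for *Snap25*, 1.253 for *Syt1*, 1.89 for *Syt4* and 2.05 for *Slc17a6*. With no pseudocount, chosen after seeing the data, these were 1.43, 1.29, 1.97 and 2.22. With 1 FPKM added they were 0.63, 0.33, 0.41 and 0.28, with 0.54 for *Syp* and 0.51 for *Rab3a*. There 0 of 5 members with a mean of 1 FPKM were past 1.5-fold, against 219 of 11980 loci higher and 75 lower. When a mean of 0.1 FPKM sufficed, 6 of 9 members were past it (median 0.72), with 894 loci higher and 342 lower. Without a filter these were 6 of 9 members (median 0.72), and 1051 and 450 of 18443 loci. When 5 FPKM was required, 0 of 2 members were past it (median 0.32), with 111 and 56 loci. The share of loci is not given for the filters of 0.1 and 5 FPKM, so these member counts have no background beside them. A threshold of 25% above equal gave 3 of 5 members, and 992 and 513 of 11980 loci. The 2-fold threshold gave 0 of 5 members, and 103 and 42 of these loci. These follow from the genes admitted, the value added or the threshold. Values per embryo and depth were not used, so the error of the values below 1 FPKM, at which 4 of the 9 genes lie, is not known.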

Other observations

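Dense core granules carry peptides and amines and are released by a related machinery. Of 12 genes for their cargo, processing enzymes and release, 4 reached a mean of at least 1 FPKM, with a median log2 ratio of 0.51. All 4 ratios were above 0, as were 5767 of 11980 over all loci with that mean. Against 3.20% of all loci with that mean, 2 of these 4 were at least 1.5-fold higher in *Smchd1*MommeD1/MommeD1 embryos. These were *Chga*, encoding the granule protein chromogranin A (1.85 FPKM in mutant against 1.05 FPKM in wildtype embryos, log2 ratio 0.76), and *Scg3*, encoding a granin that binds it (4.68 and 2.84 FPKM, 0.70). The carboxypeptidase gene *Cpe* was at 26.1 and 20.8 FPKM (0.32) and *Scg5* at 3.59 and 3.21 FPKM (0.16). Without the filter 6 of 12 were at least 1.5-fold higher, against 5.70% of all loci with a value above 0, and 3 had a ratio below 0. The genes admitted by dropping the filter had a mean under 1 FPKM. Among loci at 0.1 to under 1 FPKM, 16.4% were at least 1.5-fold higher.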
